A study of Mus musculus with 2 samples.

Results

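Chemokines are small secreted proteins that guide migrating cells, and most of them act through G protein-coupled receptors on the cells that respond. The transcripts of this family were followed here through the cells of the mouse thoracic aorta. The set was chosen by gene symbol: every feature of the deposited tables named Ccl, Cxcl, Ccr or Cxcr followed by a number, with *Cx3cl1*, *Cx3cr1*, *Xcl1*, *Xcr1* and *Ackr1* to *Ackr4*. It held 66 of the 32287 features, 44 of them ligands and 22 receptors. Of these, 45 reached 20 unique molecular identifiers (UMIs, the counted RNA molecules) in the analysed cells of both aortas together and are described, 10 had 1 to 19 UMIs, and 11 had none.

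Single cells came from the aortas of 2 male mice, 12 weeks of age, from the study's control group, which the labels call wild type and GFPiSMC. These mice carried Myh11-CreERT2, a tamoxifen-inducible Cre that is active in smooth muscle cells (SMCs), and the mT/mG reporter, which turns from tdTomato to eGFP after recombination, on the C57BL/6J background. Both received 1 mg tamoxifen daily for 5 days from 3 weeks of age, and no untreated, female or mutant aorta stood beside them. There was therefore 1 group, and all comparisons ran between cells of the same 2 animals.

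In textbook terms, homeostatic chemokines such as *Cxcl12*, *Ccl19*, *Ccl21a* and *Cxcl13* place lymphocytes and progenitors within tissues, whereas inflammatory chemokines such as *Ccl2* and *Cxcl1* draw monocytes and neutrophils from the blood. The atypical receptors *Ackr1* to *Ackr4* bind chemokines without signalling through G proteins and take up, carry or degrade them. In the vessel wall, SMCs make up the media, fibroblasts the adventitia and endothelial cells the lining, and macrophages and other leukocytes reside mainly in the adventitia.

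After filtering, 6539 cells of aorta 1 and 4614 cells of aorta 2 remained, with a median of 5671 and 5396.5 UMIs per cell. All deposited cells, before filtering, held 47009780 and 30919996 UMIs. Clustering without the chemokine genes gave 7 cell types, named from marker genes: SMC-like (2224 and 1614 cells), fibroblast-like (1636 and 1139), endothelial-like (784 and 730), myeloid-like (964 and 597), lymphocyte-like (621 and 363), mesothelial-like (274 and 158) and erythroid-like (23 and 13). The suffix is dropped below. All markers of the SMC, fibroblast, endothelial, mesothelial and myeloid lists were detected in the cells of that name. The aortas shared 18 cell barcodes. A level summed over cells does not by itself tell fewer cells with a transcript from less of it per cell, so numbers or shares of cells are given for some genes. The levels below are the UMIs of a gene in each 1000000 UMIs of that cell type (CPM), which are not scaled by gene length since the kit tags the 3′ end. A gene was called higher in a type at an adjusted p under 0.05 and a log2 fold change over 1 in edgeR's quasi-likelihood test, against the mean of the log levels of the other types.

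Chemokine and receptor transcripts together gave 81416 UMIs, 48330 in aorta 1 and 33086 in aorta 2, or 1175 and 1197 CPM. *Ccl6*, a macrophage and neutrophil chemokine of rodents, alone accounted for 18.8% of them. Summed over all ligands, myeloid cells held the most at 3283 and 3598 CPM in aorta 1 and aorta 2, followed by mesothelial cells (925 and 873), fibroblasts (837 and 931), endothelial cells (645 and 809), lymphocytes (680 and 552) and SMCs (137 and 136). The ranges of the 2 aortas overlapped between mesothelial cells and fibroblasts and between endothelial cells and lymphocytes, and SMCs lay below all 5. *Ccl6* made up 45.2% of the myeloid ligand sum, *Cxcl13* 58.7% of the mesothelial sum, *Cxcl12* 41.1% of the fibroblast sum, *Ccl21a* 52.2% of the endothelial sum, *Ccl5* 79.2% of the lymphocyte sum and *Cxcl12* 45.7% of the SMC sum.

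Receptor sums were highest in myeloid cells (757 and 716 CPM) and lymphocytes (745 and 711), whose ranges overlapped. Fibroblasts (307 and 415 CPM) and endothelial cells (283 and 353) followed with overlapping ranges. Mesothelial cells had 96.8 and 100 CPM and SMCs 16.2 and 19.7. In the 4 structural types the sum was mostly one gene, *Ackr3*, a scavenger of *Cxcl12*, which gave 90.8% of the receptor UMIs of fibroblasts, 89.5% of those of mesothelial cells, 84.4% of those of endothelial cells and 82.6% of those of SMCs.

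**Figure D1:**
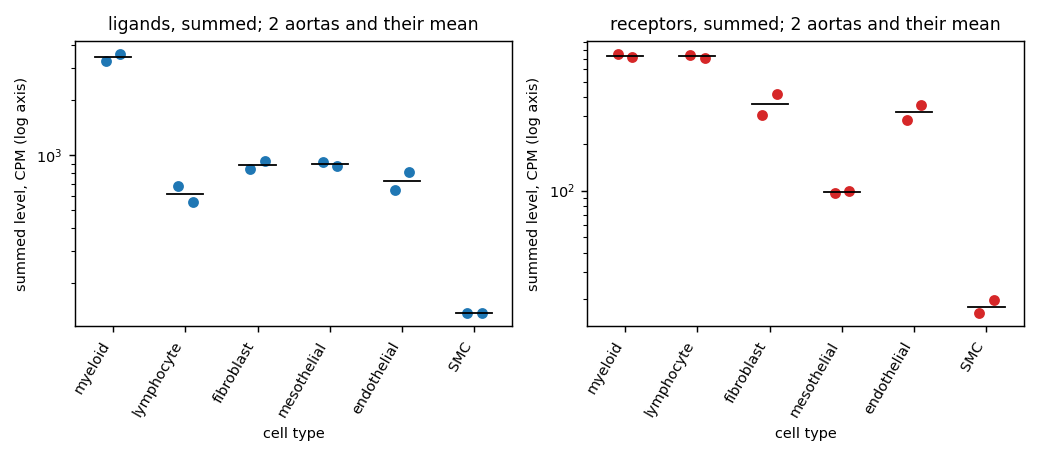
Summed level of all ligands (left) and all receptors (right), in CPM on a log axis, for 6 cell types; each point is 1 aorta and each black line the mean of both. Myeloid cells lie highest for ligands at 3283 and 3598, and SMCs lie lowest for both ligands (137 and 136) and receptors (16.2 and 19.7).

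Of the 44 set members that could be tested across types, 25 were higher in myeloid cells, where 25% of all 13970 genes tested were. Another 18 were higher in lymphocytes (24.7% of all genes), 13 in fibroblasts (23.6%), 12 in endothelial cells (19.1%), 9 in mesothelial cells (17.6%) and 3 in SMCs (22.5%). A gene can be higher in more than 1 type. Lymphocyte subcluster 12, led by the macrophage genes *Lyz2* and *C1qa*, stayed in the lymphocyte type here and in the run without mixed subclusters. Of the lymphocyte UMIs of *Ccl9* it held 31 of 39 in aorta 1 and 38 of 41 in aorta 2. For *Cx3cr1* these were 16 of 33 and 9 of 11, and for *Ccl4* 0 of 28 and 4 of 6. All 3 genes were called in lymphocytes. The share among the members was 56.8% for myeloid cells, 40.9% for lymphocytes, 29.5% for fibroblasts, 27.3% for endothelial cells, 20.5% for mesothelial cells and 6.82% for SMCs. A member that passed the filter on low counts through 1 type alone had to differ, so these shares are a description. In erythroid cells no member was called by edgeR (1.01% of all genes), and none was higher at an unadjusted p under 0.05, while DESeq2 called 1, and edgeR called 11 when cells were limited to 5000 to 25000 UMIs and 6 at clustering resolution 2, where 3.14%, 9.15% and 2.56% of all genes tested were. The sparse erythroid sums pulled the mean that other types were set against, so that the median over all genes lay 0.56 to 0.87 above 0 on the log2 scale in the other 6 types. With the erythroid sums left out that median lay between -0.09 and 0.02, and of 45 members tested 26 were called for myeloid cells (17% of all genes), 17 for lymphocytes (17.1%), 13 for fibroblasts (17.6%), 14 for endothelial cells (14.3%), 10 for mesothelial cells (15.5%) and 3 for SMCs (16.5%). With or without these sums the members' share lay above that of all genes in the first 5 of these types, by the least in mesothelial cells, and below it in SMCs. A fitted fold change against types that hold almost no UMIs of a gene rests on edgeR's prior and is no bound.

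**Figure D2:**
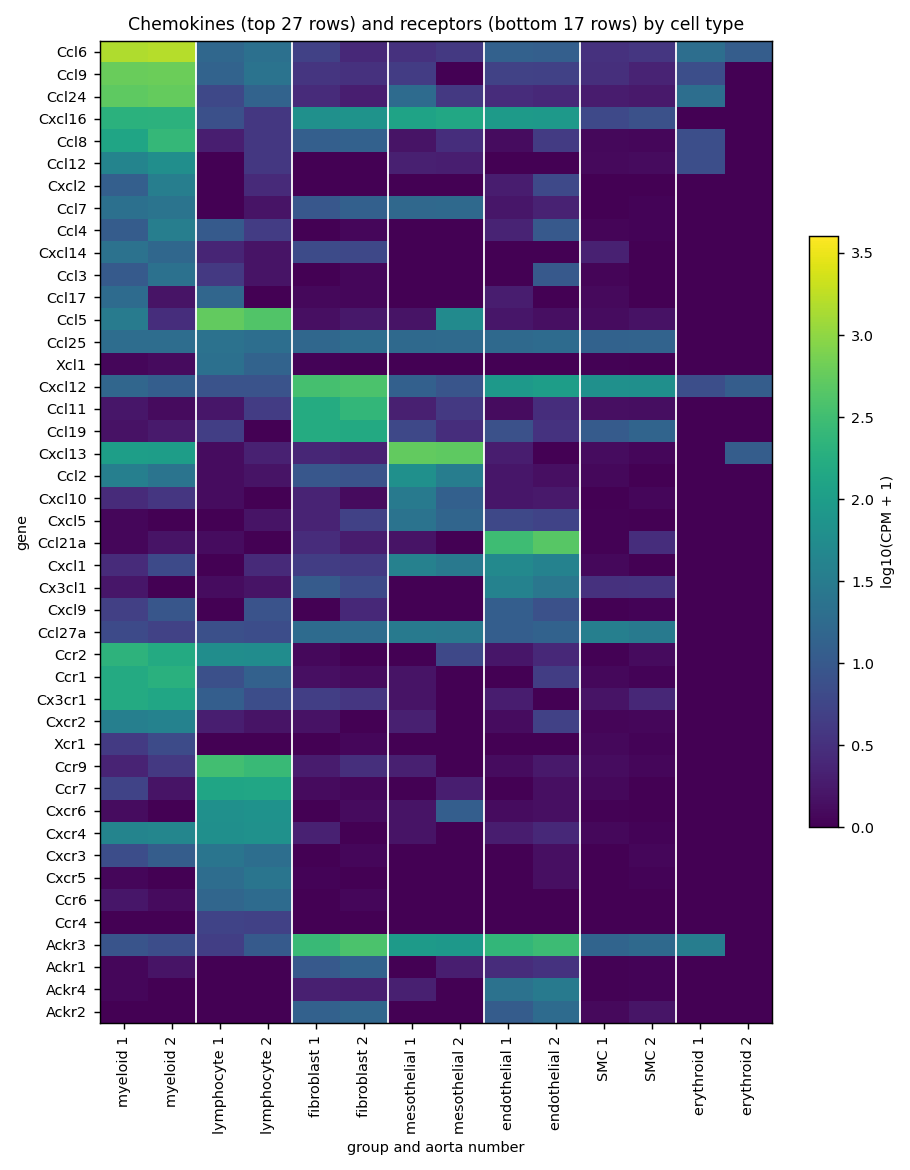
Level of 27 ligands (top rows) and 17 receptors (bottom rows) in each cell type, with 1 column for each aorta, coloured by log10(CPM + 1). Most receptors and most CCL ligands are highest in myeloid cells or lymphocytes, while Cxcl12, Ccl11, Ccl19 and Ackr3 are highest in fibroblasts.

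The ligands with the most UMIs were CCL genes of myeloid cells. *Ccl6* (chr11:83587882-83593087 in GRCm38, minus strand) stood at 1499 and 1603 CPM in the myeloid cells of aorta 1 and aorta 2. The test called it higher there (log2 fold change 7.86 ± 0.11 SE, adjusted p = 2.13e-23). *Ccl9*, its neighbour on the chromosome and also a ligand of *Ccr1*, stood at 602.5 and 611.9 CPM (log2 fold change 7.28 ± 0.12, adjusted p = 5.9e-22). Both aortas gave closely similar values for these genes, and every other type lay under 25 CPM for both. *Ccl24*, an eotaxin that attracts eosinophils through *Ccr3*, stood at 504.4 and 564 CPM in myeloid cells (log2 fold change 7.08 ± 0.14, adjusted p = 8.68e-21). Its next highest values were 19.3 CPM in the erythroid cells of aorta 1 and 17.1 CPM in the mesothelial cells of aorta 1. With each cell thinned to 1000 UMIs, 48.9% and 54.1% of myeloid cells held a *Ccl6* UMI, against 0.225% and 0.372% of SMCs. Without thinning these shares were 79.3% and 79.4% of myeloid cells and 1.62% and 1.86% of SMCs.

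Other myeloid ligands were less abundant. *Ccl8*, a monocyte attractant, stood at 129 and 251 CPM (adjusted p = 3.61e-16) and *Ccl12*, a mouse relative of *Ccl2*, at 41 and 58.3 CPM (adjusted p = 9.41e-14). *Cxcl16*, a membrane-bound ligand of *Cxcr6*, stood at 199 and 207 CPM in myeloid cells and was also called higher in mesothelial cells (123 and 145), endothelial cells (91.7 and 86.2) and fibroblasts (62.9 and 69.9), where the call was lost with the erythroid sums left out (log2 fold change 0.79). The aortas did not overlap between these 4 types, and SMCs had 5.23 and 6.71 CPM. *Cxcl14*, a chemokine of epithelia and macrophages, stood at 21.9 and 14.8 CPM in myeloid cells (adjusted p = 6.01e-08) and at 5.68 and 5.05 CPM in fibroblasts.

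Fibroblasts carried 3 ligands that stood above all other types in both aortas. *Cxcl12*, the ligand of *Cxcr4* and *Ackr3* that retains progenitors and lymphocytes in tissues, lay at 349.4 and 375.3 CPM (log2 fold change 3.97 ± 0.10, adjusted p = 3.82e-19). Endothelial cells followed at 87.3 and 100.5 CPM and SMCs at 63 and 61.9, and these 3 ranges did not overlap. *Ccl11*, an eotaxin, lay at 165.7 and 239.2 CPM in fibroblasts (log2 fold change 8.59 ± 0.23, adjusted p = 8.38e-18). *Ccl19*, which calls Ccr7-bearing T cells and dendritic cells to lymph nodes, lay at 164.7 and 152 CPM (log2 fold change 6.78 ± 0.23, adjusted p = 5.63e-16), and the next type, SMCs, had 10 and 13.7 CPM. The *Ccl19* reads were all assigned to ENSMUSG00000071005, and the other feature of that symbol had none, so its near-identical copies cannot be told apart here. With cells thinned to 1000 UMIs, 24.1% and 24.2% of fibroblasts held a *Cxcl12* UMI, against 0.322% and 0.826% of lymphocytes (56.8% and 56.4% against 1.61% and 2.2% without thinning).

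Mesothelial cells, the covering of the body cavities, led for *Cxcl13*, which attracts B cells, at 545 and 507 CPM (log2 fold change 7.58 ± 0.14, adjusted p = 2.61e-21), with myeloid cells next at 104 and 99.9. Few cells held these transcripts. In aorta 1, 23 of 274 mesothelial cells held all *Cxcl13* UMIs and the leading cell had 43.7% of them, and in aorta 2 these were 8 of 158 cells and 46.3%. Mesothelial cells were also called higher for *Ccl2*, the main monocyte attractant (63.6 and 32.7 CPM, adjusted p = 5.16e-10), but myeloid cells at 34.4 and 23 CPM overlapped with them. The neutrophil attractant *Cxcl5* stood at 22.7 and 13.9 CPM in mesothelial cells (adjusted p = 2.67e-07) and the interferon-induced *Cxcl10* at 29.3 and 11.9 CPM (adjusted p = 1.06e-07). Their *Ccl5* came to 0.553 and 52.5 CPM, and 51 of the 53 UMIs in aorta 2 lay in 1 cell.

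Endothelial ligands were of 2 kinds. *Ccl21a*, which guides Ccr7-bearing cells into lymphatic vessels and nodes, lay at 302 and 466 CPM (log2 fold change 10.09 ± 0.31, adjusted p = 9.46e-17). *Ccl21a* also has near-identical copies, all listed at 0, so its reads cannot be assigned to 1 copy with certainty. *Cxcl1*, a neutrophil attractant, lay at 48.4 and 38.4 CPM (adjusted p = 4.89e-10), and *Cx3cl1*, the membrane-bound fractalkine, at 38.6 and 26.1 CPM (adjusted p = 9.86e-10). *Cxcl1* in mesothelial cells (37.6 and 27.8 CPM) did not reach these values, and fibroblasts had 9.79 and 5.49 CPM of *Cx3cl1*. *Cxcl9*, which attracts activated T cells, lay at 11 and 6.72 CPM, but 30 of its 35 UMIs in aorta 1 lay in 1 endothelial cell, and under DESeq2 the call was lost. Endothelial subcluster 8, which also holds myeloid genes, held 31 of these 35 UMIs and all 17 in aorta 2.

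Lymphocytes led for *Ccl5*, a product of cytotoxic T cells and NK cells, at 548 and 422 CPM (log2 fold change 8.96 ± 0.47, adjusted p = 8.42e-13), and for *Xcl1*, which attracts cross-presenting dendritic cells, at 20.4 and 12.8 CPM (adjusted p = 8.08e-10). Myeloid *Ccl5* was 30.3 CPM in aorta 1 and 1.92 in aorta 2. *Ccl17*, a T cell attractant of dendritic cells, was seen almost only in aorta 1: myeloid cells had 17.1 and 0.547 CPM and lymphocytes 14.4 and 0. In the lymphocytes of aorta 1, 41 of the 43 *Ccl17* UMIs lay in 1 cell.

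SMCs were the highest type for *Ccl27a* alone among the members with 100 or more UMIs. *Ccl27a*, a skin chemokine whose receptor is *Ccr10*, stood at 35.4 and 29.9 CPM in SMCs (log2 fold change 3.09 ± 0.28, adjusted p = 9.07e-09, and 1.67 ± 0.11 with the erythroid sums left out) and at 29.3 and 27.8 CPM in mesothelial cells, whose range lay just below. Its locus overlaps *Il11ra1* on the opposite strand, and it too has copies listed at 0. *Cxcl12* (log2 fold change 1.12 ± 0.14, adjusted p = 4.94e-07) and *Ccl19* (2.49 ± 0.70, adjusted p = 0.00623, and 1.26 ± 0.27 without the erythroid sums) were the other members called higher in SMCs, though both were far below fibroblasts. Under DESeq2 both of these calls were lost and *Ccl27a* alone was called. *Ccl25*, the thymic ligand of *Ccr9*, varied least, between 12.5 and 22.1 CPM over all 6 types other than erythroid cells, with lymphocytes at 22.1 and 18.9. Its call in lymphocytes was lost under DESeq2 and with the erythroid sums left out. The gene overlaps *Elavl1* on the opposite strand.

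**Figure D3:**
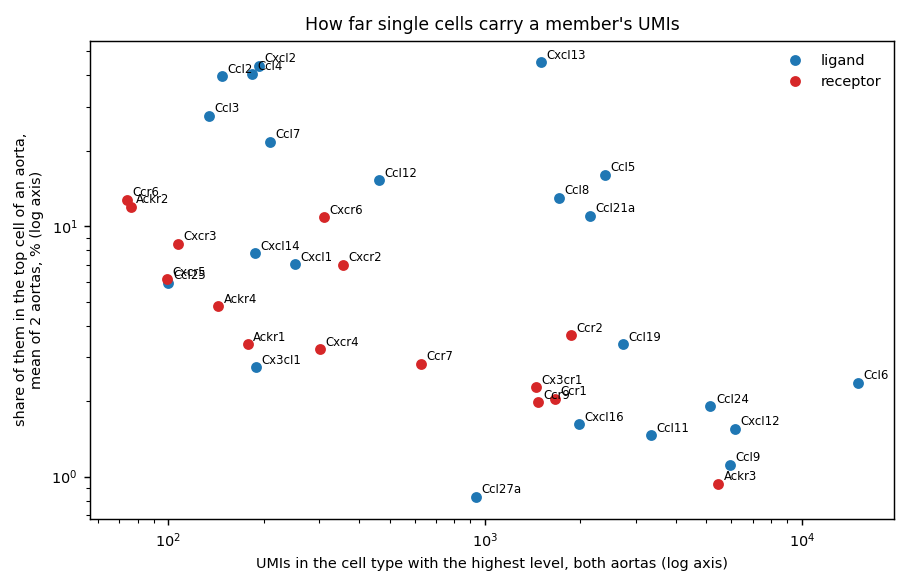
For each member plotted (points, blue for ligands and red for receptors), the share of its UMIs held by the leading cell, as the mean of the 2 aortas in percent, against its UMIs in its highest cell type, both on log axes; members with 30 or more UMIs there in each aorta are shown. Cxcl13, Cxcl2, Ccl4 and Ccl2 lie near 40% or above, whereas Ccl6 (2.37%), Cxcl12 (1.56%) and Ackr3 (0.94%) were spread over many cells.

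Several inflammatory ligands were held by few cells, and the share of the leading cell was higher in aorta 2. *Cxcl2*, a neutrophil attractant, stood at 11.4 and 33.7 CPM in myeloid cells, held by 20 of 964 and 16 of 597 cells, and the leading cell had 22.9% of the UMIs in aorta 1 and 64.2% in aorta 2. *Ccl4*, a macrophage inflammatory protein, stood at 10.1 and 33.4 CPM, held by 29 and 19 cells, with 11.3% and 69.7% in the leading cell. *Ccl3*, a ligand of *Ccr1*, stood at 9.46 and 20.8 CPM in 21 and 23 cells, with 15.5% and 39.5% in the leading cell. For these 3 genes aorta 2 exceeded aorta 1. Genes that tissue dissociation can switch on were counted in the same cells. They were *Fos*, *Fosb*, *Jun*, *Junb*, *Egr1*, *Atf3*, *Ier2*, *Ier3*, *Hspa1a*, *Hspa1b*, *Nfkbia* and *Zfp36*, most of them immediate early genes, with *Hspa1a* and *Hspa1b* as heat shock genes. The myeloid cells with a *Cxcl2* UMI after thinning (7 and 6 cells) had 6.14 and 5.17 UMIs of these 12 genes per 1000 UMIs, and those without had 1.04 and 1.02. For *Ccl4* the values were 2.6 and 2.71 against 1.06 and 1.04. For *Ccl3* (0.833 and 3.07 against 1.08 and 1.01), *Ccl2* (1.83 and 0.545 against 1.07 and 1.07) and *Ccl7* (1.67 and 0.5 against 1.07 and 1.07) the direction differed between the aortas. The part of dissociation in these levels was not tested. *Ccl7*, a monocyte attractant next to *Ccl2*, stood at 20.6 and 23 CPM in myeloid cells, 15.5 and 15.9 in mesothelial cells and 8.61 and 11.8 in fibroblasts, where 23 and 22 cells held it.

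Signalling receptors were, with few exceptions, transcripts of leukocytes. In myeloid cells *Ccr2*, the receptor of *Ccl2* and *Ccl7*, lay at 209 and 159 CPM (log2 fold change 8.37 ± 0.24, adjusted p = 1.18e-17), *Ccr1* at 158 and 191 (8.77 ± 0.24, adjusted p = 8.55e-18), and *Cx3cr1*, the fractalkine receptor, at 158 and 133 (7.81 ± 0.23, adjusted p = 2.22e-17). Aorta 1 was the higher for *Ccr2* and *Cx3cr1*, and aorta 2 for *Ccr1*. The annotated span of *Cx3cr1* also contains *Xirp1*, a muscle gene on the same strand, so reads of either may be counted or discarded there. *Cxcr2*, the neutrophil receptor for *Cxcl1*, *Cxcl2* and *Cxcl5*, lay at 34.8 and 39.1 CPM (adjusted p = 1.48e-12).

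Lymphocytes led for *Ccr9*, the *Ccl25* receptor of thymocytes and gut-homing T cells, at 326 and 276 CPM (log2 fold change 9.49 ± 0.19, adjusted p = 9.84e-20), and for *Ccr7*, the lymph-node homing receptor, at 128 and 135 CPM (9.17 ± 0.31, adjusted p = 4.49e-16). *Cxcr6* lay at 62.9 and 67.9 CPM (adjusted p = 3.06e-13). *Cxcr4*, the signalling receptor of *Cxcl12*, lay at 61.6 and 65.1 CPM in lymphocytes and at 41.6 and 44.6 in myeloid cells, with no overlap. *Cxcr3* (24.4 and 18.9 CPM), *Cxcr5* (18.4 and 24.5), *Ccr6* (14.4 and 17.3) and *Ccr4* (4.35 and 3.9) were lower and also called in lymphocytes, though DESeq2 did not call *Ccr4* (adjusted p = 0.257). *Ccr4*, with 20 UMIs, was the last member above the limit of 20, and *Ccr10*, with 17, the first below it.

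The atypical receptors were carried by structural cells instead. *Ackr3* lay at 276.6 and 380 CPM in fibroblasts (log2 fold change 3.39 ± 0.13, adjusted p = 9.31e-16) and at 244.9 and 289.5 CPM in endothelial cells (2.91 ± 0.14, adjusted p = 1.25e-13). These ranges overlapped, mesothelial cells followed at 90.7 and 82.3 CPM, and SMCs had 13.5 and 16.1. With cells thinned to 1000 UMIs, 18.9% and 25.9% of fibroblasts held an *Ackr3* UMI, against 0.483% and 0.826% of lymphocytes (53.7% and 62.9% against 1.45% and 2.2% without thinning). *Ackr4*, a scavenger of *Ccl19*, Ccl21 and *Ccl25*, lay at 21.7 and 29.7 CPM in endothelial cells (adjusted p = 3.55e-11). *Ackr2*, a scavenger of inflammatory CC chemokines, lay at 10.1 and 17.4 CPM in endothelial cells and 12.3 and 14.6 in fibroblasts, with overlapping ranges, and both were called. *Ackr1*, which binds many chemokines on venules and red cells, was highest in fibroblasts at 9.01 and 12.4 CPM (adjusted p = 4.49e-09). It overlaps *Cadm3* on the same strand, so its reads may include that gene.

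Fibroblasts and SMCs, the main cells of the adventitia and the media, were compared directly in the same fit. Of the 44 members tested, 20 were higher in fibroblasts (15.7% of all genes were) and 1 was higher in SMCs (9.84% of all genes). The median log2 difference over the members was 1.57, against 0.07 over all genes, and 1.64 over the members with *Ccl12*, at 0 in fibroblasts, set to its bound of 3 counts over the group and 3 genes at or under that floor in both types left out. *Ccl11* differed most, by 8.83 ± 0.28 on the log2 scale (adjusted p = 1.69e-16), followed in order of adjusted p by *Ackr3* (4.38 ± 0.17, adjusted p = 1.11e-15), *Cxcl12* (2.44 ± 0.10, adjusted p = 4.9e-15), *Cxcl16* (3.4 ± 0.14, adjusted p = 2.07e-14) and *Ccl19* (3.67 ± 0.17, adjusted p = 1.37e-13). The member higher in SMCs was *Ccl27a*, with a log2 difference of fibroblasts to SMCs of -1.01 ± 0.13 (adjusted p = 1.46e-06). That value lay at the limit for a call: DESeq2 made none, and with the aortas as a replicate block 2 members were called.

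Within fibroblasts, 12 of the 14 members tested differed among the subclusters, where 40.5% of all genes did. The count is no support, since a member can pass the filter through the subcluster where it is high, as *Cxcl14* did with 56 of its 58 and 29 of its 35 fibroblast UMIs in subcluster 4. Subclusters were numbered and are identified by their leading genes. *Ccl19* (adjusted p = 1.06e-20) was highest in subcluster 11, led by *Aqp1* and *Mab21l2*, at 703 and 1038 CPM, and lowest in subcluster 2, led by *Pla1a* and *Dpp4*, at 6.21 and 9.82 CPM. *Ackr3* (adjusted p = 2.55e-17) ran the other way: subcluster 2 had 775 and 862 CPM and subcluster 11 had 40.6 and 18.5. Subcluster 5, led by *Prg4* and the immediate early genes *Junb* and *Fos*, came next for *Ackr3* at 624 and 736 CPM.

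*Ccl11* (adjusted p = 5.62e-17) was highest in subcluster 1, led by *Myoc* and *Kitl*, at 497 and 505 CPM, and lay at 2.82 and 10.2 CPM in subcluster 3, led by *Lamc3* and *Meox1*. *Cxcl12* (adjusted p = 1.38e-11) was highest in subcluster 6, led by *Hbb-bs* and *Hhip*, at 709 and 933 CPM and lowest in subcluster 2, at 67.3 and 82.6. Among the fibroblast subclusters, number 2 was thus the highest for the scavenger *Ackr3* and the lowest for its ligand *Cxcl12*. It also had the most *Ackr1*, at 54.9 and 49.1 CPM (adjusted p = 3.55e-12), and the most *Ackr2*, at 47.6 and 48.3 CPM (adjusted p = 1.69e-10). *Cxcl16* was highest in subcluster 3, at 115 and 143 CPM (adjusted p = 3.01e-11), and *Cxcl14* in subcluster 4, led by *Ptn* and *Epyc*, at 69.3 and 78.6 CPM. Only 11 and 5 fibroblasts held a *Cxcl14* UMI, and the leading cell had 39.7% and 74.3% of these UMIs. Since *Cxcl14* passed the filter through subcluster 4, its test is no support for that peak. *Ccl25* (adjusted p = 0.317) and *Ccl27a* (adjusted p = 0.479) did not pass the test.

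**Figure D4:**
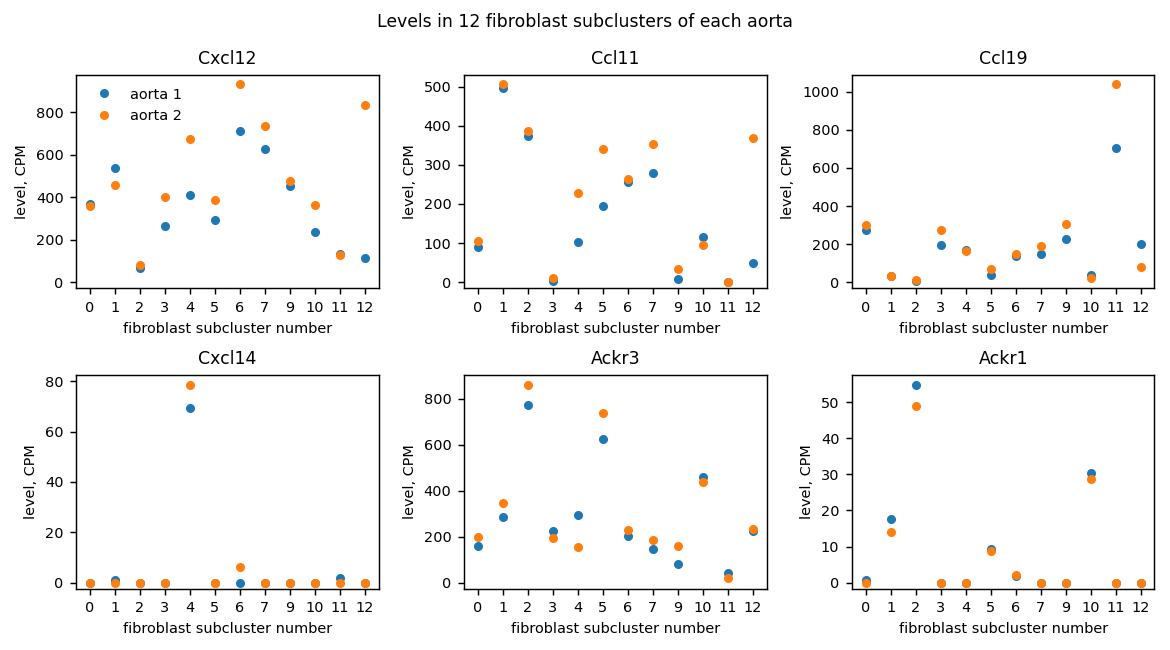
Level of Cxcl12, Ccl11, Ccl19, Cxcl14, Ackr3 and Ackr1 (1 panel each) in 12 fibroblast subclusters, in CPM; each point is 1 aorta (blue for aorta 1, orange for aorta 2). Ccl19 peaks in subcluster 11 (703 and 1038) where Ackr3 is lowest (40.6 and 18.5), and Ackr3 peaks in subcluster 2 (775 and 862).

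Among the endothelial subclusters the 12 members tested were called, where 34.3% of all genes were. The count is no support, since *Ccl6*, *Ccl9*, *Ccl4* and *Cxcl9* passed the filter only with subcluster 8, and *Ccl21a* and *Ackr2* lay mostly in subcluster 5 (962 of 963 and 1044 of 1179 *Ccl21a* UMIs of aorta 1 and aorta 2, and 31 of 32 and 40 of 44 of *Ackr2*). Subcluster 5 carried lymphatic markers, with 46 and 75 cells. *Ccl21a* lay at 5960 and 4236 CPM in these lymphatic cells and at 0.351 and 0.454 CPM in the subclusters named blood endothelial. Subclusters 9 and 10, with markers of other types, were in neither group, and 1 cell of subcluster 9 in aorta 2 held 134 *Ccl21a* UMIs and 3 of *Ackr2*. *Ackr2* was likewise found at 192 and 162 CPM against 0.351 and 0.454. *Ackr3* stood at 564 and 653 CPM in lymphatic cells and 232 and 251 in blood endothelial cells (adjusted p over subclusters = 1.52e-11). The difference ran the other way for *Cxcl16* (0 and 8.12 against 93 and 95.8 CPM), *Cxcl12* (12.4 and 4.06 against 90.2 and 110) and *Cxcl1* (6.2 and 0 against 53.4 and 43.1), and *Cx3cl1* was listed at 0 in the lymphatic cells against 40.7 and 30 CPM. *Ackr4* gave 6.2 and 77.1 CPM in lymphatic cells, so the aortas disagreed there.

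Among blood endothelial cells, *Cx3cl1* was highest in subcluster 4, led by *Slc6a6*, *Igf2* and *Sema3g*, at 129 and 86.6 CPM (adjusted p = 4.26e-08), and *Cxcl1* in subcluster 2, led by *Adra2a* and *Coch*, at 115 and 82.7 CPM (adjusted p = 3.74e-12). *Cxcl12* was highest by far in subcluster 8, at 1351 and 914 CPM (adjusted p = 2.87e-23). This subcluster of 14 and 29 cells was led by the capillary genes *Fabp4* and *Gpihbp1* together with the myeloid genes *Tyrobp* and *Retnla*, and it also held *Ccl6* at 622 and 279 CPM. The part of myeloid RNA in its values was not tested. Without it 8 members passed the filter and were called (32.2% of 7613 genes were), *Ccl21a* and *Ackr2* of subcluster 5 among them, and *Cxcl12* was still called.

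In SMCs 6 of 6 members tested differed among subclusters, where 50% of all genes did, a count given as a description. *Cxcl12* (adjusted p = 1.59e-12) ranged from 162 and 127 CPM in subcluster 3, led by *Fbln1* and *Sfrp2*, to 1.93 and 4.62 CPM in subcluster 9, led by *Pln* and *Sncg*. *Ackr3* (adjusted p = 6.51e-13) stood at 47.5 and 46.2 CPM in subcluster 3 and at 48.4 and 47.9 CPM in subcluster 5, led by *Hhip* and *Chrdl2*, and at most at 19 CPM in all others. *Ccl19* (adjusted p = 1.26e-08) was highest in the same subcluster 5, at 33.9 and 51.3 CPM, with subcluster 3 next. *Ccl25* (adjusted p = 1.06e-06) stood at 68.5 and 81.3 CPM in subcluster 7, whose leading genes include the nuclear RNAs *Malat1* and *Neat1* and whose median depth was 1858 UMIs, and at 26.6 CPM or less in the others. *Ccl27a* differed little, from 15.4 to 45.5 CPM (adjusted p = 0.00767).

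Leukocytes were split further, and 7 subsets with 10 or more cells in each aorta were tested: macrophages (695 and 434 cells), monocytes (50 and 27), neutrophils (42 and 35), T cells (324 and 165), B cells (120 and 93), thymocytes (140 and 82) and a myeloid subcluster of 43 and 27 cells that the dendritic lists named on 3 markers. Its leading genes were *Lyz1*, *Cd226*, *Aldh1a2* and *Ear2*, and its summed macrophage markers (4231 and 4141 CPM) exceeded its summed markers of conventional type 2 dendritic cells (644 and 481), so it is called the *Lyz1* and *Cd226* cells. Of 26 members tested, 16 were higher in macrophages (21.2% of 8054 genes), 10 in the *Lyz1* and *Cd226* cells (15.1%), 7 in monocytes (12.2%), 7 in T cells (19.1%), 5 in neutrophils (11.8%), 3 in B cells (14.1%) and 2 in thymocytes (22%). The median over all genes lay between 0.09 and 0.29 on the log2 scale, and at -0.76 in neutrophils. DESeq2 called 9 in macrophages (19.6% of all genes) and 1 in thymocytes (20.2%).

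Macrophages led for most of the myeloid ligands. *Ccl24* stood at 629 and 706 CPM in them (log2 fold change 9.16 ± 0.30, adjusted p = 9.87e-22), *Cxcl16* at 251 and 257 (7.42 ± 0.28, adjusted p = 1.89e-20), *Ccl8* at 154 and 298 (8.91 ± 0.41, adjusted p = 6.22e-18) and *Cxcl13* at 137 and 131 (8.46 ± 0.38, adjusted p = 7.65e-18, but 0.168 under DESeq2). Macrophage subclusters split these ligands between them, which is given as a description. Subcluster 1, led by *Cd209f*, had 1112 and 1109 CPM of *Ccl24* and 463 and 808 of *Ccl8*, and its *Cxcl16* was 110 and 136. Subcluster 3, led by *Mmp12* and *Cd72*, had 1.66 and 2.49 CPM of *Ccl24* and no *Ccl8*, but 893 and 891 CPM of *Cxcl16*, 581 and 517 of *Cx3cr1* and 103 and 79.6 of *Cxcl14*. *Cxcl13* lay almost entirely in subcluster 8, led by *Slpi*, *Prg4* and *Alox15* (554 and 537 CPM), and subcluster 12, led by *Marco* and *Spp1* (504 and 887).

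*Ccl6* was shared by several subsets. The *Lyz1* and *Cd226* cells had the most, at 3505 and 3346 CPM (adjusted p = 2.44e-25), followed by neutrophils (1955 and 2548), macrophages (1471 and 1558) and monocytes (571 and 838), with no overlap between neighbours in that order. *Ccl9* followed the same order among mononuclear cells, at 1373 and 1173 CPM in the *Lyz1* and *Cd226* cells, 584 and 615 in macrophages and 264 and 459 in monocytes, but was listed at 0 in neutrophils of both aortas. In myeloid cells with a *Ccl6* UMI after thinning, 48.2% and 51.1% also held a *Ccl9* UMI, against 27.2% and 20.4% of those without.

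**Figure D5:**
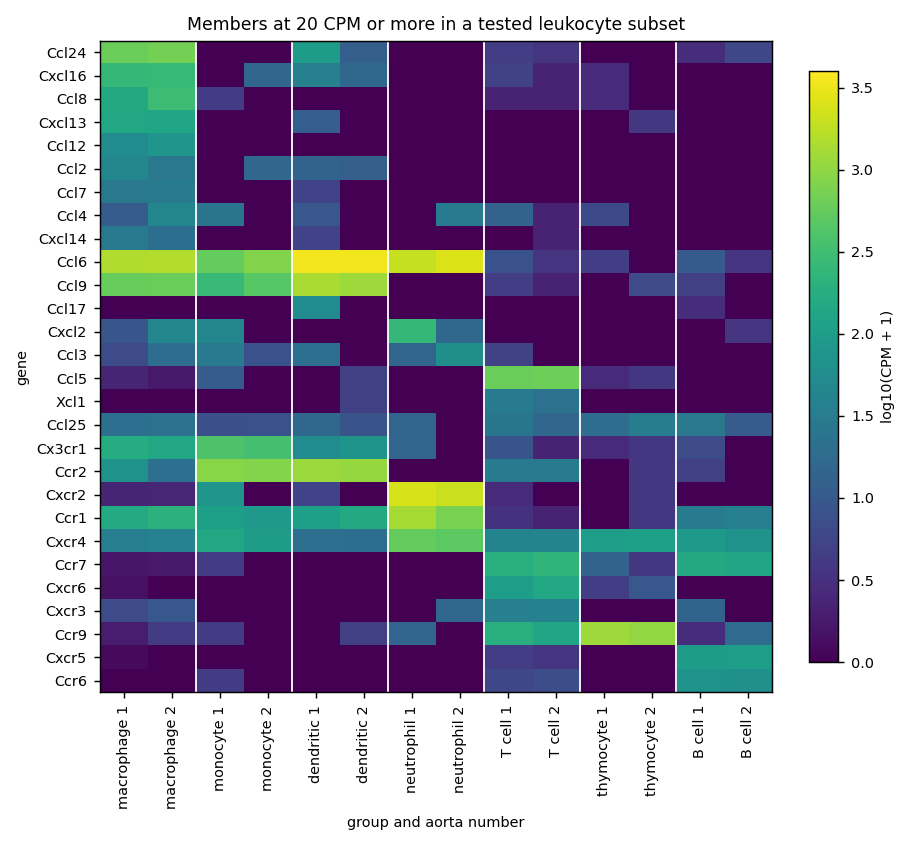
Level of 28 members (rows) in the 7 tested leukocyte subsets, with 1 column for each aorta, coloured by log10(CPM + 1); the columns labelled dendritic hold the Lyz1 and Cd226 cells. Cxcr2, Ccr9 and Cxcr5 stand out in 1 subset each, neutrophils, thymocytes and B cells, while Ccl6 is high in all 4 myeloid subsets.

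Several receptors were confined largely to 1 subset. *Cxcr2* lay at 2423 and 2090 CPM in neutrophils (log2 fold change 9.99 ± 0.28, adjusted p = 1.02e-23) and at 73.5 and 0 in monocytes. After thinning, 88.1% and 82.9% of neutrophils held a *Cxcr2* UMI, and 97.6% and 88.6% without thinning. Neutrophils were also highest for *Ccr1* (1308 and 763 CPM, adjusted p = 8.43e-18) and *Cxcr4* (564 and 488, adjusted p = 1.36e-12), the receptor that holds them in and returns them to the bone marrow. Their median depth was 1678.5 and 1726 UMIs, below that of the other myeloid subsets tested.

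*Ccr2* was highest in the *Lyz1* and *Cd226* cells (1144 and 1071 CPM, adjusted p = 2.64e-19) and monocytes (922 and 845, adjusted p = 1.96e-16), and lay at 67.4 and 19.8 CPM in macrophages. *Cx3cr1* was highest in monocytes (391 and 344 CPM, adjusted p = 2.71e-16) and stood at 172 and 144 CPM in macrophages. Monocytes thus lay above macrophages for both receptors in both aortas, with no overlap.

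Among lymphocytes, thymocytes carried *Ccr9* at 1196 and 1047 CPM (log2 fold change 7.24 ± 0.21, adjusted p = 4.3e-24), and T cells had 180 and 132. T cells and B cells both held *Ccr7*, at 179 and 229 CPM (adjusted p = 6.77e-19) and 147 and 136 CPM (adjusted p = 5.06e-15). B cells alone among the tested subsets had *Cxcr5* (94.5 and 98.6 CPM, adjusted p = 9.63e-14) and *Ccr6* (67.5 and 64.1, adjusted p = 1.24e-11) above 10 CPM. *Cxcr6* stood at 98.8 and 137 CPM in T cells (adjusted p = 2.37e-16), and within them at 856 and 1258 CPM in subcluster 11, led by *Tmem176a* and *Il18r1*, which had 10 and 9 cells. *Ccl5* in T cells was 614.5 and 632.2 CPM (adjusted p = 6.71e-25), and subcluster 8, led by *Gzmb* and *Cd160*, had 4344 and 2973. Group 2 innate lymphoid cells (13 and 8) and NK cells (11 and 3) were too few to test. In NK cells *Ccl5* reached 13840 and 15540 CPM, and in the innate lymphoid cells *Ccr2* stood at 988 and 739 CPM and *Cxcr6* at 359 and 207.

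*Xcr1*, the receptor of *Xcl1* on cross-presenting dendritic cells, had 45 UMIs, and 30 of them lay in myeloid subcluster 10 (52.9 and 68.8 CPM, 28 and 26 cells), which was led by *Klrd1*, *Cd209a* and *Flt3* and took no subset name. This subcluster also held *Ccr2* at 459 and 468 CPM. Its *Ccl17* (282 and 9.18 CPM), *Ccl5* (625 and 18.4) and *Ccr7* (77.7 and 0) came almost wholly from aorta 1.

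Ligands and the receptors known to bind them were also read side by side, in the types where each was highest. *Cxcl12* in fibroblasts (362 CPM, mean of the aortas) stood beside its scavenger *Ackr3* in the same type (328) and its receptor *Cxcr4* in lymphocytes (63.3). Both ends were present for *Cx3cl1* in endothelial cells (32.4) and *Cx3cr1* in myeloid cells (145), for *Cxcl16* in myeloid cells (203) and *Cxcr6* in lymphocytes (65.4), and for *Cxcl13* in mesothelial cells (526) and *Cxcr5* in lymphocytes (21.4). For other pairs 1 end was close to absent. The eotaxins *Ccl11* and *Ccl24* had 3384 and 5287 UMIs, while *Ccr3* had 9. *Ccl27a* had 1460 UMIs and *Ccr10* 17, and *Ccl8* had 1933 and *Ccr8* 1. In the other direction *Ccr6* had 80 UMIs and its ligand *Ccl20* none. These are levels of transcripts side by side, with no measure of binding.

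The remaining members gave few or no UMIs. Besides *Ccr10*, the members below the limit were *Ccr3* with 9 UMIs, *Cxcl15* and *Cxcl17* with 6 each, and *Cxcr1*, *Cxcl3*, *Ccl22*, *Ccl26*, *Ccr8* and *Ccl28* with 1 each. *Ccl20*, *Ccl1*, *Ccl27b* and the further copies of Ccl21, *Ccl27a* and *Ccl19* were at 0. By position, 10 of the described CC ligands lay within chr11:82035571-83664683 in GRCm38, 6 CXC ligands within chr5:90759360-95961068, and 11 of the 18 described receptors on chromosome 9. Neighbours did not share 1 pattern: *Ccl11* was highest in fibroblasts, *Ccl5* in lymphocytes, *Ccl2* in mesothelial cells and *Ccl6* in myeloid cells, all within the chromosome 11 block.

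Further genes of chemokine handling were taken from a list of 19, of which 17 could be tested. Of these, 14 were higher in myeloid cells and 11 in lymphocytes, 4 in endothelial cells, 3 each in fibroblasts and mesothelial cells, and 2 in SMCs. Of all genes tested, 25% were higher in myeloid cells, 24.7% in lymphocytes, 19.1% in endothelial cells, 23.6% in fibroblasts, 17.6% in mesothelial cells and 22.5% in SMCs, against which these counts are to be read. *Pf4*, a CXC chemokine outside the naming rule, stood at 2932 and 3018 CPM in myeloid cells. *Dpp4*, a protease that trims and inactivates several chemokines, stood at 729 and 527 CPM in mesothelial cells. *Rac2*, which drives leukocyte migration downstream of these receptors, stood at 624.5 and 603.2 CPM in lymphocytes, and *Arrb1*, an arrestin that uncouples and internalizes receptors, at 113 and 94.9 CPM in endothelial cells. The 2 genes called in SMCs were *Grk3*, a receptor kinase, and *Ccrl2*, which binds chemerin.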

How the data were processed

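Single viable cells of 2 thoracic aortas were sorted without selection for GFP and profiled with the Chromium 3′ v3.1 kit, and the authors aligned and counted the reads with Cell Ranger 4.0.0 against mm10 with eGFP and tdTomato added. The deposited values are raw UMI counts per gene and cell, 1 matrix per aorta. The submitters' processing notes also name Seurat 4.0. Cells with over 200 genes, 1000 to 25000 UMIs and under 10% mitochondrial UMIs were kept (6744 of 8947 and 4698 of 6263), and 205 and 84 doublets called by Scrublet were removed. Cells were clustered with scanpy 1.11.5 and leidenalg 0.10.2 (2000 variable genes, 30 components, 15 neighbours, resolution 1) with the chemokine and receptor genes left out, and clusters were named from marker lists. Clusters stayed unnamed with 2 or more leading markers of another list, under 3 markers, or low UMI counts and no own leading marker. This left 13 cells without a type, and 633 cells in mixed subclusters stayed in their type. Low UMI counts alone left no cluster unnamed, and depth was not used for the fibroblast and SMC subclusters. Summed UMIs of each type in each aorta were tested with edgeR 4.0.16 (TMM, filterByExpr, quasi-likelihood F test, Benjamini-Hochberg over all genes tested) in R 4.3.3. A call across types or subsets needed an adjusted p under 0.05 and a log2 fold change over 1, and a call among subclusters the adjusted p alone. DESeq2 1.42.0 was an alternative.

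The aorta number pairs the sums, since all cell types came from the same 2 animals, and a fit with that number as a block was run as an alternative. With 2 aortas the p-values measure the spread between these 2 animals, and depth limits scarce genes. The deposited cells held 47009780 and 30919996 UMIs, and the analysed cells fewer. The binomial intervals and limits behind shares of cells cover counting error only. On simulated counts for 13970 genes in the fibroblast comparison, 75% of genes changed by 1 on the log2 scale and 92% of those changed by 2 were recovered, and 0.116% of unchanged genes were called. Each unchanged gene had the same mean level in all types there, and all genes a single fixed dispersion. A simulated call needed the adjusted p alone. The data differ in these points, so these rates do not measure the error of the calls given here. Members with 20 or more UMIs were described, and those with 100 or more were given in their highest and next type. Leading genes are named only to identify subclusters. The members and lists were chosen with earlier results of these data known. Gene positions are from GENCODE M21 (GRCm38). The naming rules for subsets were set after the cluster tables, and before the chemokine values, were seen. For 1 member the values are not reported here, though the counts and sums include it.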

Additional observations from a re-analysis of the deposited data

Results flagged for a closer look

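A cluster of 13 cells, all from aorta 1 and with 17822 UMIs together, held 7 markers of a list, but none was among its leading genes and its median depth was 1299 UMIs, so it stayed unnamed and entered no comparison. The genes named here lay above the 168 CPM that a count of 0 would allow, and 7 of the 14 members with a UMI lay below it. *Cx3cr1* stood at 4825 CPM and was detected in 13 of 13 cells. Among ligands, *Ccl4* stood at 3759 CPM, *Ccl3* at 1852, *Ccl12* at 1347, *Ccl2* at 561 and *Cxcl10* at 337. In the myeloid cells of aorta 1 these genes lay between 1.79 CPM (*Cxcl10*) and 158 CPM (*Cx3cr1*). With 1 cluster in 1 aorta there was no replicate check, and what these cells are was not tested.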

How the results depend on the processing

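For members with 100 or more UMIs, the log2 fold change in their highest type turned direction under no alternative run, and 360 recomputed values stayed on their side of the call. The call was lost for *Ccl25* in lymphocytes at 5000 to 25000 UMIs per cell (0.19), under DESeq2 (0.73) and without erythroid sums (0.46), for *Cxcl2* and *Ccl17* in myeloid cells under DESeq2 (adjusted p = 0.213 and 0.162), for *Ccl17* without the mixed subclusters (adjusted p = 0.0532) and for *Cxcl9* in endothelial cells under DESeq2 and at 5000 to 25000 UMIs (0.42). Of all 150 calls of a member as higher, scarce members and other types included, 30 were lost under DESeq2, 13 with doublets kept, 24 of 141 tested at 5000 to 25000 UMIs, 11 at resolution 2, and 11 of 133 with 1 leading marker. Those in SMCs included *Cxcl12* at resolution 2 (0.96). Among lost calls, *Ccl9* in lymphocytes (-2.60 at 5000 to 25000 UMIs), *Cx3cr1* in the *Lyz1* and *Cd226* cells (-0.82 with doublets kept) and *Ccl5* in myeloid cells (-0.19 without mixed subclusters) turned direction. Of the counts and shares, 129 stayed within 1.5 times of the value given or within the spread of the aortas, and 28 did not, as follows. The cause was not tested. Percentages are the share of all genes tested that was called under that setting. In SMCs 1 member in place of 3 was called under DESeq2 (11.4%), with doublets kept (20.9%) and with 1 leading marker enough to leave a cluster unnamed (20.1%). In erythroid cells 1 was called under DESeq2 (3.14%), 11 at 5000 to 25000 UMIs (9.15%) and 6 at resolution 2 (2.56%), in place of 0. Higher in SMCs than in fibroblasts were 0 under DESeq2 (6.39%) and with doublets kept (9.81%), 2 without a filter on low counts (7.59%) and 2 with the aorta as a replicate block (9.84%), in place of 1, and the block moved no other count by over 1.5 times. In T cells 11 of 48 members tested were called without the filter (14.3%) and 4 of 24 at 5000 to 25000 UMIs (10.1%), in place of 7 of 26 (19.1%). In macrophages DESeq2 called 9 in place of 16 (19.6%), and in monocytes 13 of 29 were called at resolution 2 (13.6%) in place of 7 of 26. In thymocytes 1 was called in place of 2 under DESeq2, with doublets kept, at 5000 to 25000 UMIs, at resolution 2, with 1 leading marker, and without lymphocyte subcluster 5 (14.8% to 21.8%). Among endothelial subclusters 3 of the 5 members tested were called at 5000 to 25000 UMIs (10.3%) in place of 12, and among SMC subclusters 11 of 44 were called without the filter (31.1%) in place of 6 of 6. The mean share of myeloid cells with a *Ccl6* UMI was 51.5%, and 79.3% without thinning and 31.3% for 2 or more UMIs. For *Cxcl12* in fibroblasts these were 24.1%, 56.6% and 7.92%, and for *Ackr3* in fibroblasts 22.4%, 58.3% and 5.43%. Leaving out 1 of 2 aortas cannot move a value beyond their spread, so it says nothing about stability. The settings without mixed subclusters, without erythroid sums, without lymphocyte subcluster 5 and without endothelial subcluster 8 were chosen after seeing the data. Resolution 2 and the stricter marker rule were not run among subclusters, and protein motifs were not analysed here.

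Limits: 2 aortas of 1 group carry no treatment contrast, several ligands rest on single cells, and the *Lyz1* and *Cd226* cells, lymphocyte subcluster 5 (led by *Mgp* and *Acta2*) and endothelial subcluster 8 mix genes of more than 1 cell type. Transcripts with few UMIs were not detectable in all types at this depth.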

Other observations

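Lymphocyte subcluster 12, which took no subset name and was led by the macrophage genes *Lyz2* and *C1qa*, entered no comparison of subsets but stayed in the lymphocyte type. It held *Ccl17* at 460 CPM in aorta 1 and 0 in aorta 2. In T cell subcluster 5, led by the structural genes *Mgp* and *Acta2*, *Ccl5* stood at 21.8 and 460 CPM. Macrophage subcluster 13, led by the interferon-induced genes *Ifit2* and *Isg15*, had *Ccl8* at 224 and 1230 CPM and *Ccl6* at 1454 and 4364 CPM, so the aortas lay far apart there.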
